A study of Canis lupus familiaris with 6 samples.

Results

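The genes described here are the matrix metalloproteases (MMP), the ADAM and ADAMTS proteases and the tissue inhibitors of metalloproteases (TIMP) that the array annotation names. A gene was included when at least 1 probe set carried its symbol and no other, with no filter on signal. This gave 54 genes of the 15115 genes named on the array, read by 96 of 42924 probe sets. They were 21 MMP, 16 ADAM, 14 ADAMTS and 3 TIMP genes. TIMP4, ADAM12, ADAM17 and ADAMTS1, which are of interest in heart, had no probe set that carried their symbol and are not analysed here.

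Left ventricular tissue, frozen in liquid nitrogen, was profiled from 6 dogs, each on its own Affymetrix canine array. The affected dogs were 3 Great Danes with dilated cardiomyopathy, a disease in which the ventricle widens and pumps weakly. They were a female of 9 years (affected 1) and males of 7 years (affected 2 and affected 3). The controls were a male Labrador retriever of 12 years (control 1), a female St. Bernard of 10 years (control 2) and a male Greater Swiss Mountain dog of 4 years (control 3). Breed and disease cannot be told apart in this design, and no control was a Great Dane. All group values below come from n = 3 dogs against n = 3 dogs.

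MMPs are zinc enzymes that cut collagens, proteoglycans and other matrix proteins, and most are made as inactive precursors that another protease must activate. ADAMs sit in the cell membrane and release the outer parts of growth factors, receptors and adhesion proteins, although several members have lost the protease site. ADAMTS enzymes are secreted and cut proteoglycans such as versican or trim procollagens, and TIMPs block MMPs and some ADAM and ADAMTS enzymes. In heart failure the balance of these proteases and inhibitors is studied because it shapes collagen turnover and the dilation of the ventricle.

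Every deposited value is a log2 difference from the median of that probe set over the 6 arrays. A value of 0 is therefore the middle of the 6 dogs and not an absent transcript, and levels of different genes cannot be compared. For the same reason the labelled tissue could not be checked from marker levels. A gene value is the mean of its probe sets, and a difference is affected minus control on the log2 scale with its moderated standard error (SE). In whole tissue, fewer cells of a type and less RNA per cell cannot be told apart.

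No protease or TIMP gene passed the adjusted threshold. In the fit over all 15115 genes the count was 0 of 54 members, where 0% of all genes passed (limma, Benjamini-Hochberg adjusted p under 0.05), and in the fit over probe sets it was 0 of 96 members, where 0.00233% of all probe sets passed. At an unadjusted p under 0.05, 2 member genes were higher (4.88% of all genes) and 3 were lower (5.64% of all genes), a total of 5 of 54 members where 10.5% of all genes were found. At the level of probe sets, 3 were higher (4.53% of all probe sets) and 5 were lower (6.32%) at an unadjusted p under 0.05. The higher ones belonged to MMP23, ADAM32 and TIMP3, and the lower ones to ADAM19 (2 probe sets), ADAM28, ADAMTS7 and MMP1. That of MMP23 alone also differed by at least 2-fold (1.16% of all probe sets). The smallest adjusted p among member genes was 0.322 (limma), shared by many genes, and the largest was 0.892. MMP23 was the only member gene that differed by at least 2-fold.

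Most members varied little between dogs. The median difference of the 54 genes was -0.11, beside -0.075 for all genes, and 49 of the 54 lay below 0 (90.7%, where 65% of all genes did). After quantile normalization 42 lay below 0, where the median of all genes was -0.012. After each array was centred on its median 43 did, where the median of all genes was -0.0022. The family medians were -0.092 for MMP, -0.11 for ADAM, -0.14 for ADAMTS and 0.24 for TIMP genes. A range of at least 1 over the 6 arrays was found in 10 members, or 18.5%, where 18.1% of all genes had such a range. Of the 96 probe sets 82 lay below 0 (67% of all probe sets did) and 19 had such a range (23.6% of all). The 10 genes were MMP2, MMP23, MMP28, ADAMTS3, ADAMTS5, ADAMTS9, ADAMTS14 and all 3 TIMPs.

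**Figure D1:**
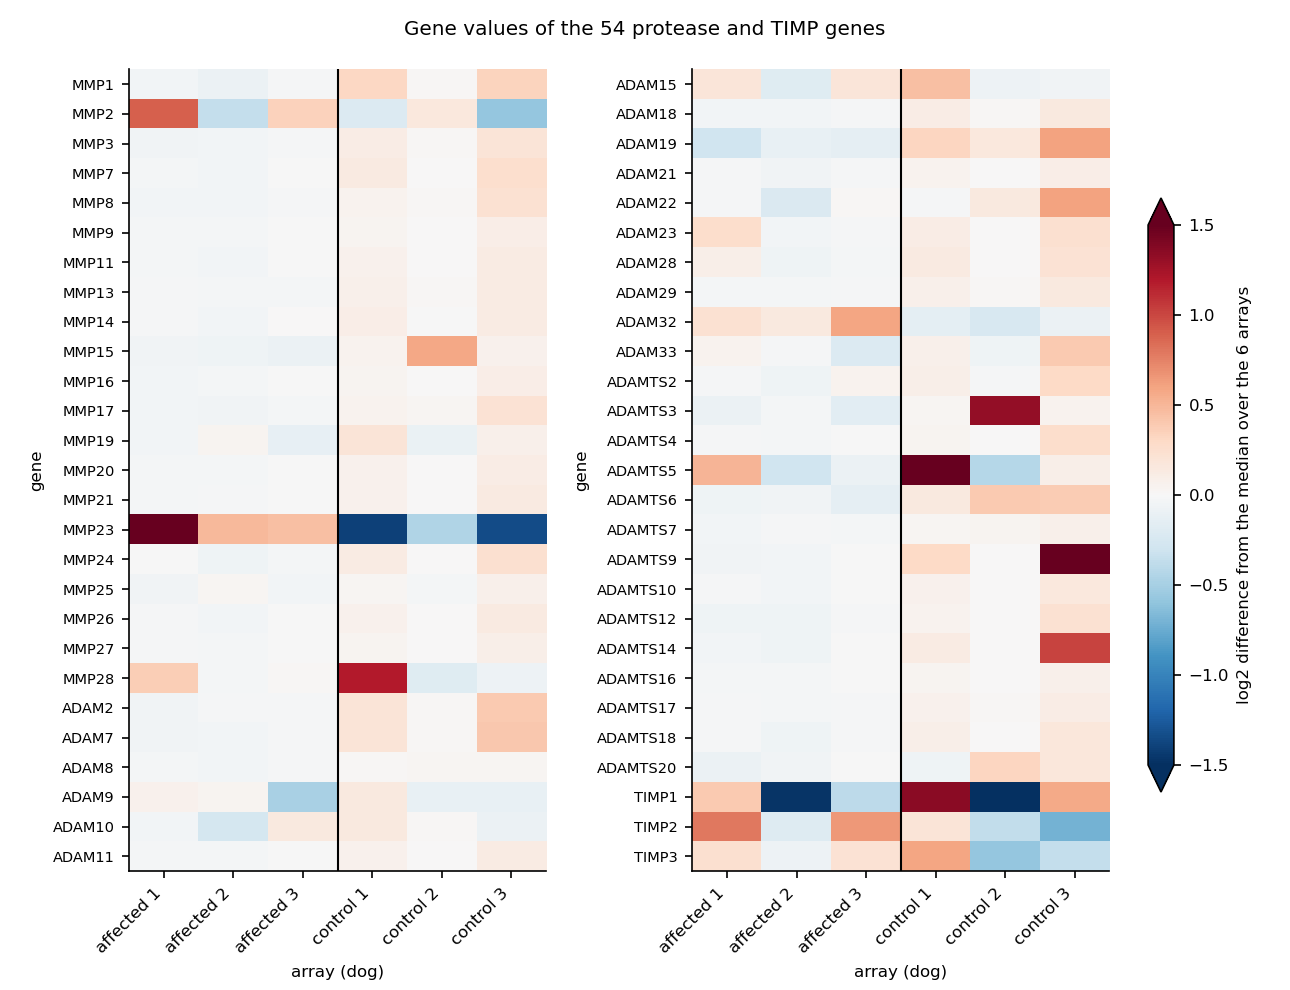
Gene values (colour, log2 difference from the median over the 6 arrays, colours saturating at -1.5 and 1.5) of the 54 genes (rows) on the 6 arrays (columns, affected left of the line and control right of it). Most rows are pale with control 3 slightly above the rest, while MMP23 is high on all affected arrays and single strong cells mark MMP28 and ADAMTS5 on control 1, ADAMTS3 on control 2, and ADAMTS9 and ADAMTS14 on control 3.

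A small shift shared by many probe sets ran between the groups. The array carries 17 control probe sets for tag sequences that no dog transcript should match. Their mean was -0.030, -0.032 and -0.014 on affected 1, affected 2 and affected 3, against 0.059, 0.011 and 0.13 on control 1, control 2 and control 3. The groups did not overlap in these tags, and affected arrays were lower by -0.093 on the log2 scale. A probe set is said below to follow the tags when its values correlated with this mean over the 6 arrays at r over 0.9.

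Of the 96 member probe sets 53 followed the tags (55.2%), where 41.8% of all probe sets and 37.5% of the named ones did. By family these were 20 of 30 MMP probe sets, 13 of 30 ADAM, 20 of 30 ADAMTS and 0 of 6 TIMP probe sets. All probe sets followed the tags in 26 of the 54 genes (33.3% of all genes), and none did in 18 (48.4% of all genes).

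This bears on how a lack of overlap between groups is read. The affected values lay wholly below the control values in 34 of 54 members (63.0%), where 41.7% of all genes did, and wholly above in 2 members (3.70%), where 5.8% did. Over probe sets 65 of 96 were lower without overlap (46.9% of all probe sets) and 2 were higher (5.37% of all). Of the 34, 25 were genes in which every probe set followed the tags, and such genes are bound by that choice to resemble the tags: 96.2% of them over the whole array were lower without overlap, as were 25 of the 26 members. Among the 18 members with no probe set following the tags, 3 were lower without overlap (16.7%, where 9.14% of all such genes were). Higher without overlap were 2 of them (11.1%, where 10.2% of all such genes were). Of the same 18 members 14 lay below 0 (77.8%, where 39.6% of all such genes did). Their median difference was -0.10, beside 0.079 for all such genes. The part of the array-wide shift in the lower member values was not tested beyond these counts.

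**Figure D2:**
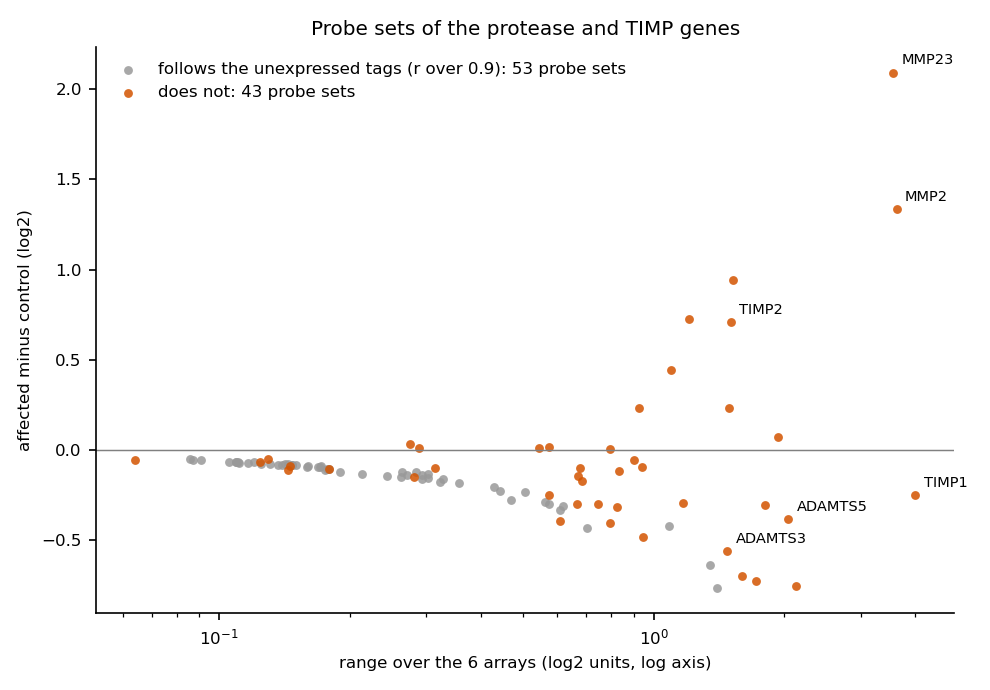
Difference between groups (affected minus control, log2) against the range over the 6 arrays (log axis) for the 96 member probe sets, grey where they follow the unexpressed tags and orange where they do not. The 53 grey points run in a narrow band below 0 that falls away as the range grows, and the 14 probe sets above 0, led by those of MMP23, MMP2 and ADAM32, are all orange.

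MMP23 had the largest difference of the 54 genes. It encodes a short metalloprotease held in the membrane before it is cut free, without the hemopexin-like domain of most MMPs. Its single probe set read 2.15, 0.48 and 0.45 on affected 1, affected 2 and affected 3, against -1.41, -0.45 and -1.34 on control 1, control 2 and control 3. All affected dogs were above all controls, and affected 1 was 1.67 above the next array. The means were 1.03 ± 0.97 in affected and -1.06 ± 0.54 in control hearts (SD, n = 3 each), a difference of 2.09 (SE 0.56), or 4.26-fold, with a limma adjusted p of 0.322. It was 1.53 without affected 1 and 1.55 for affected 2 alone against the controls, with affected 2 assumed to vary like the other dogs. Over all 16 alternative settings it ran from 1.53 to 2.40, and the limma adjusted p from 0.162 to 0.659. Of all genes 0.84% were higher at least 2-fold with an unadjusted p under 0.05, as MMP23 was.

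The gelatinases are MMP2, the gelatinase of fibroblasts, and MMP9, which is stored in neutrophils. MMP2 read 0.89, -0.36 and 0.34 on affected 1, affected 2 and affected 3, against -0.21, 0.15 and -0.58 on the 3 controls in order, so that the groups overlapped and affected 2 was second lowest of the 6. Its difference was 0.50 (SE 0.37, limma adjusted p = 0.372). Its 3 probe sets disagreed, at 1.33 (SE 0.81), 0.24 (SE 0.39) and -0.063 (SE 0.041), and the last followed the tags. With that probe set left out the gene's difference was 0.79, and for affected 2 alone against the controls it was -0.15, below 0. MMP9 read -0.034, -0.029 and -0.011 on the affected arrays and 0.044, 0.011 and 0.097 on the controls, and all 3 of its probe sets followed the tags.

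The collagenases MMP1, MMP8 and MMP13, which make the first cut in fibrillar collagen, were lower without overlap, as were 41.7% of all genes. MMP1 had an unadjusted p under 0.05, with values of -0.037, -0.085 and -0.018 on the affected arrays and 0.30, 0.018 and 0.34 on the controls. Its difference was -0.27 (SE 0.098, limma adjusted p = 0.322). Control 2 lay only just above the affected dogs, and the probe set with the larger difference, -0.43 against -0.10 for the other, followed the tags. MMP8 and MMP13 differed by -0.14 and -0.099, and the only probe set of MMP8 and 1 of the 2 of MMP13 followed the tags.

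Neutrophils store MMP8 and MMP9, and their markers can be set beside them. Only 5 of the 9 neutrophil markers had named probe sets. MPO, ELANE and CSF3R followed the tags in every probe set, as did MMP8 and MMP9. The calgranulins S100A8 and S100A9, which neutrophils and monocytes carry in large amounts, did not. S100A8 read -0.61, -0.50 and -1.71 on the affected arrays and 1.75, 0.50 and 1.36 on the controls. It was lower in affected hearts without overlap, as were 41.7% of all genes. MMP8 and MMP9 were also lower without overlap, but were at most 0.23 from 0 on all 6 arrays.

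Stromelysin MMP3, matrilysins MMP7 and MMP26, and MMP11 followed the tags in all 4 probe sets and differed between -0.16, for MMP7, and -0.091. MMP7 read -0.033, -0.043 and -0.011 on the affected arrays and 0.13, 0.011 and 0.25 on the controls. The order of these values is that of the tags, with control 3 highest and control 2 closest to the affected dogs. MMP13, MMP3, MMP1, MMP8, MMP27, MMP20 and MMP7 lie in 1 run in the RefSeq annotation of a German Shepherd genome, with at most 1 other protein-coding gene between neighbours. All 7 were lower without overlap, by -0.068 for MMP27 up to -0.27 for MMP1, and 5 of them had every probe set following the tags. Of all genes 41.7% were lower without overlap, and 96.2% of those with every probe set following the tags.

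The membrane-type MMPs differed between -0.30 and -0.051. MMP14, the main activator of the MMP2 precursor, read -0.017, -0.045 and 0.004 on the affected arrays and 0.095, -0.004 and 0.12 on the controls, and its only probe set followed the tags. MMP15, a close relative of MMP14, did not follow them and read -0.054, -0.059 and -0.086 on the affected arrays and 0.054, 0.58 and 0.061 on the controls. Its difference of -0.30 (SE 0.16, limma adjusted p = 0.322) rested on control 2, the female control, and was -0.12 without that dog. The other 4, MMP16, MMP17, MMP24 and MMP25, differed between -0.16 and -0.051.

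Among the remaining MMPs, MMP28, also called epilysin and known from skin and lung, was high on 1 control. It read 0.37, -0.033 and 0.012 on the affected arrays and 1.19, -0.18 and -0.073 on the controls, a difference of -0.20 (SE 0.40, limma adjusted p = 0.742). Control 1 was 0.83 above the next array. MMP19, MMP20, MMP21 and MMP27 differed between -0.098 and -0.068.

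**Figure D3:**
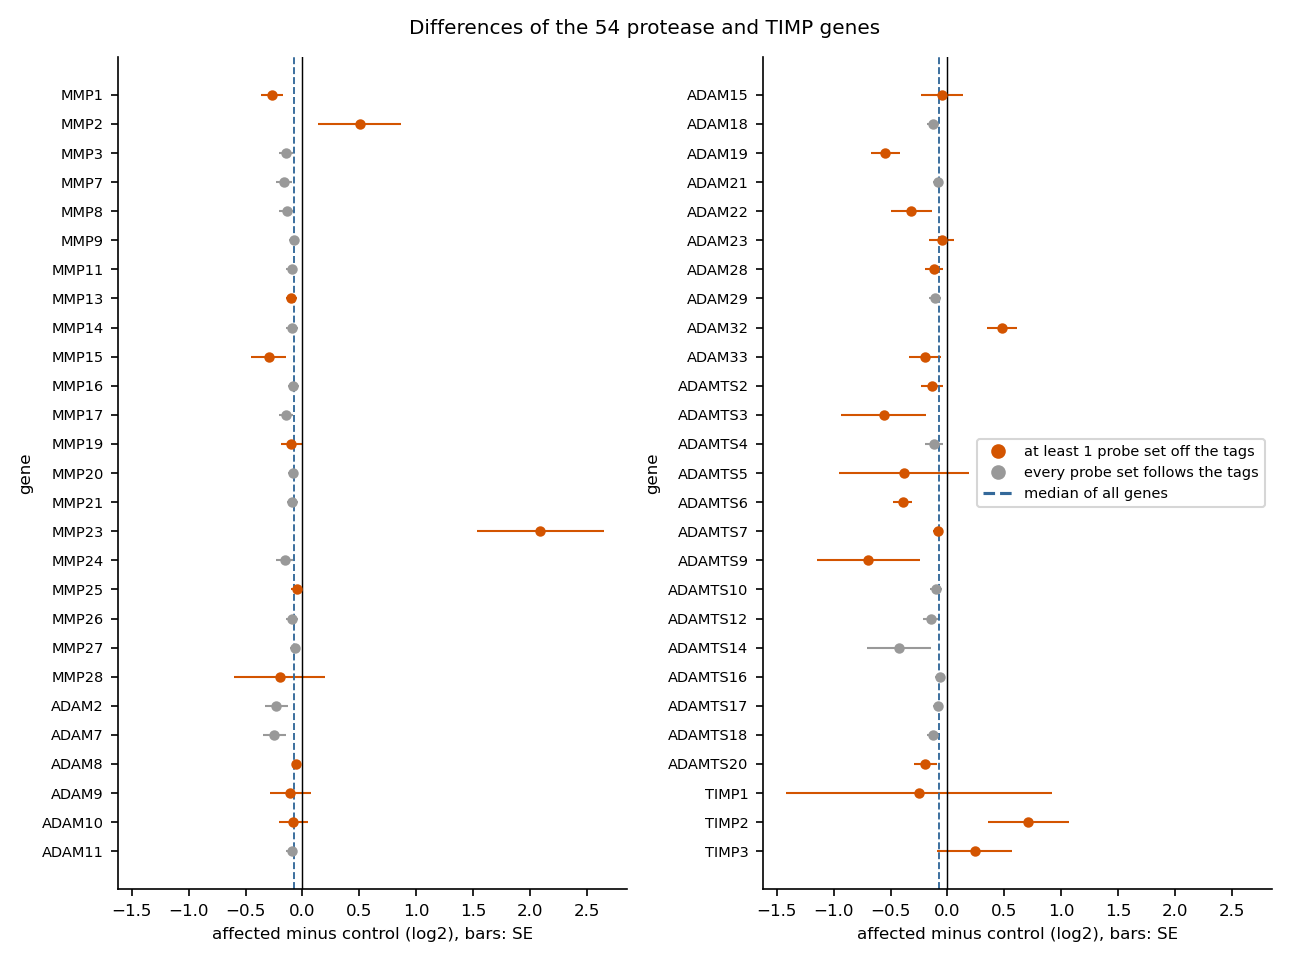
Difference between groups (affected minus control, log2, points) with its standard error (bars) for the 54 genes, grey where every probe set follows the unexpressed tags and orange elsewhere, and a dashed line at the median of all genes. MMP23, TIMP2, MMP2, ADAM32 and TIMP3 lie above 0, and the other 49 lie below it, most of them close to the dashed line.

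ADAM10, the enzyme that cuts Notch receptors and cadherins, did not separate the groups. It read -0.036, -0.27 and 0.15 on the affected arrays and 0.15, 0.018 and -0.084 on the controls, a difference of -0.080 (SE 0.13, limma adjusted p = 0.668). ADAM9 and ADAM15, other membrane proteases, differed by -0.11 and -0.046, with ADAM9 lowest on affected 3, at -0.49. ADAM8, ADAM21, ADAM28 and ADAM33 completed the ADAMs with an active protease, and differed by -0.055, -0.080, -0.12 and -0.20.

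ADAM19 sheds neuregulins and is needed in mice for the formation of heart valves and septa. It read -0.30, -0.11 and -0.14 on the affected arrays and 0.32, 0.16 and 0.60 on the controls, so every affected dog was below every control. Its difference was -0.54 (SE 0.13, limma adjusted p = 0.322). All 3 probe sets were lower without overlap, where 46.9% of all probe sets were, by -0.76, -0.48 and -0.39, and only the first followed the tags. Its difference lay between -0.76 and -0.42 over the 16 alternative settings, and was -0.44 with that probe set left out.

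Of the 16 ADAM genes 8 were lower without overlap (50%, where 41.7% of all genes were) and 1 was higher (6.25%, where 5.8% of all genes were). The higher one was ADAM32, which lacks the protease site and is known from testis. It read 0.23, 0.14 and 0.60 on the affected arrays and -0.14, -0.24 and -0.093 on the controls, a difference of 0.48 (SE 0.13, limma adjusted p = 0.322). Its 2 probe sets differed by 0.95 (SE 0.23) and 0.016 (SE 0.19) between the groups. The first read 0.68, 0.18 and 0.98 on affected 1, affected 2 and affected 3, against -0.18, -0.27 and -0.54 on the 3 controls, and in the second the groups overlapped. ADAM32 lies in 1 run with ADAM18, ADAM2 and ADAM9, with at most 2 other protein-coding genes between neighbours, and these differed by -0.12, -0.23 and -0.11.

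The other ADAMs without a protease site are known from the reproductive tract (ADAM2, ADAM7, ADAM18, ADAM29) or from neurons (ADAM11, ADAM22, ADAM23). ADAM2 read -0.056, -0.023 and -0.014 on the affected arrays and 0.19, 0.014 and 0.39 on the controls. ADAM7 read -0.053, -0.045 and -0.023 on the affected arrays and 0.19, 0.020 and 0.41 on the controls. Both followed the tags in every probe set. ADAM22 differed most of the neuronal ones, by -0.32 (SE 0.18), with control 3 highest at 0.60.

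**Figure D4:**
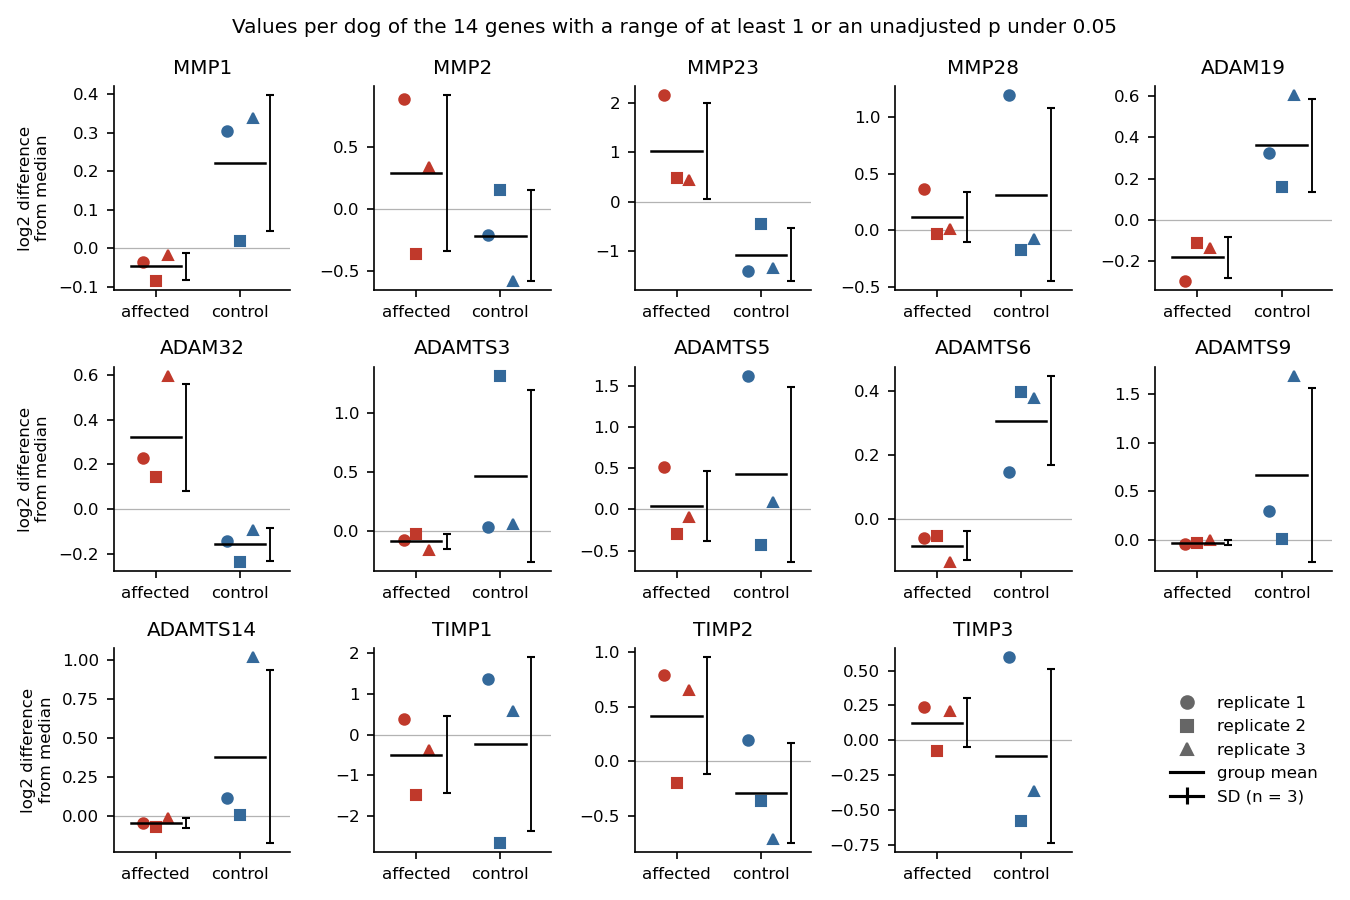
Values per dog (log2 difference from the median over the 6 arrays, one scale per panel) of the 14 genes with a range of at least 1 or an unadjusted p under 0.05, affected left of control, with the group mean (line) and SD (bar beside it, n = 3). MMP23 and ADAM32 are higher in all affected dogs, ADAM19, ADAMTS6 and MMP1 are lower in all of them, and single controls stand above the rest in ADAMTS3, ADAMTS5, ADAMTS9, ADAMTS14 and MMP28.

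All 14 ADAMTS genes lay below 0, where 65% of all genes did, and 11 were lower without overlap, where 41.7% of all genes were. Of their 30 probe sets 20 followed the tags. ADAMTS6, loss of which gives heart defects in mice, had the smallest p of the 54 genes. It read -0.062, -0.054 and -0.14 on the affected arrays and 0.15, 0.40 and 0.38 on the controls, a difference of -0.39 (SE 0.083, limma adjusted p = 0.322). All 6 probe sets were lower without overlap, where 46.9% of all probe sets were, by between -0.72 and -0.15, and 3 of them followed the tags. With those 3 left out its difference was -0.61. Of the probe sets kept, that at -0.70 lay just under the limit for following the tags, at r = 0.896. That at -0.72 read 1.61 on control 2, against 0.030 and 0.31 on control 1 and control 3.

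The ADAMTS enzymes that cut versican and aggrecan differed widely between controls. ADAMTS9 read -0.049, -0.039 and -0.007 on the affected arrays and 0.30, 0.007 and 1.69 on the controls, so its difference of -0.70 (SE 0.45, limma adjusted p = 0.339), the lowest of the 54, came mostly from control 3, the youngest dog. It was -0.18 without that dog and -1.02 without control 2. Of the 2 probe sets of ADAMTS9, 1 followed the tags and the other lay at r = 0.876. ADAMTS5, the main aggrecan-cutting enzyme of mouse cartilage, read 0.51, -0.30 and -0.089 on the affected arrays and 1.61, -0.43 and 0.089 on the controls. Its groups overlapped, and its difference of -0.38 (SE 0.58, limma adjusted p = 0.653) turned to 0.21 without control 1. ADAMTS4 followed the tags, at -0.017, -0.024 and -0.009 on the affected arrays and 0.038, 0.009 and 0.26 on the controls. ADAMTS20, which cuts versican in mouse skin, differed by -0.19 (SE 0.11).

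The procollagen N-proteinases, which trim the amino end of fibrillar procollagens, also had single high controls. ADAMTS3, which also activates the lymphatic growth factor VEGF-C, read -0.082, -0.031 and -0.16 on the affected arrays and 0.031, 1.32 and 0.052 on the controls. Its difference of -0.56 (SE 0.37, limma adjusted p = 0.345) was -0.13 without control 2. ADAMTS14 read -0.045, -0.069 and -0.010 on the affected arrays and 0.12, 0.010 and 1.01 on the controls, and its only probe set followed the tags. Its difference of -0.42 (SE 0.28, limma adjusted p = 0.343) was -0.11 without control 3. ADAMTS2, the third of these enzymes, differed by -0.13 with 2 of its 3 probe sets following the tags. ADAMTS7, ADAMTS10, ADAMTS12, ADAMTS16, ADAMTS17 and ADAMTS18 were lower without overlap, by -0.065 for ADAMTS16 up to -0.15 for ADAMTS12, where 41.7% of all genes were. Apart from 1 of the 2 of ADAMTS7, all their probe sets followed the tags. Of all genes with every probe set following the tags, 96.2% were lower without overlap.

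The TIMPs varied more between dogs than most of the proteases, and none separated the groups. TIMP2, which inhibits MMPs and also helps MMP14 activate MMP2, read 0.79, -0.20 and 0.65 on affected 1, affected 2 and affected 3, against 0.20, -0.37 and -0.71 on the controls. Its difference was 0.71 (SE 0.36, limma adjusted p = 0.322), and affected 2 lay among the controls. It was 1.02 without affected 2 and 0.095 for affected 2 alone against the controls.

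TIMP1, a TIMP induced in inflammation and fibrosis, had the widest range of the 54 genes, 4.01. It read 0.39, -1.47 and -0.39 on the affected arrays and 1.36, -2.65 and 0.57 on the controls. Control 2 was 1.18 below the next array. The difference was -0.25 (SE 1.17, limma adjusted p = 0.892), and it ran from -1.45 without control 2 to 0.55 without control 1, so no direction can be given.

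TIMP3, which binds to matrix and also blocks ADAM and ADAMTS enzymes, read 0.24, -0.077 and 0.21 on the affected arrays and 0.60, -0.58 and -0.36 on the controls. Its difference was 0.24 (SE 0.33, limma adjusted p = 0.621), and it was 0.59 without control 1 and 0.008 without control 2. Its 4 probe sets differed by 0.73 (SE 0.27), 0.44, 0.075 and -0.29. Control 1 was the highest of the 6 arrays in the last 3, at 0.37, 1.29 and 0.67, and not in the first, at 0.056.

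Some of these genes ran with markers of other cells over the arrays. The 11 fibroblast markers, all measured and none following the tags in every probe set, had a median value of 1.11, 0.091 and 0.61 on affected 1, affected 2 and affected 3, and of -0.31, -0.16 and -1.51 on the controls. MMP2 and TIMP2 were likewise highest on affected 1 and affected 3. The fibroblast median was above all controls on every affected array, as MMP23 was. So was the median of the 8 endocardium and valve markers, 2 of them following the tags in every probe set. It was 0.39, 0.076 and 0.028 on the affected arrays and -0.31, -0.12 and -0.077 on the controls. The 12 macrophage and monocyte markers, all measured and 1 of them following the tags, had a median of 1.65, -0.13 and -0.012 on the affected arrays and 0.68, -0.40 and -0.29 on the controls, with affected 1 and control 1 highest, and ADAMTS5 and MMP28 were also highest on these arrays, with control 1 first. The fibroblast marker PDGFRA had 2.03 on control 1 and between -0.13 and 0.028 on the other 5. The 3' minus 5' difference of beta-actin control probe sets, which is larger where RNA integrity is lower, was 0.31, -0.18 and 0.58 on the affected arrays and 0.080, 0.11 and -0.34 on the controls, so it was highest on affected 3 and affected 1. The same difference for GAPDH ran otherwise, at 0.022, 0.14 and -0.033 on the affected arrays and -0.036, 0.15 and -0.14 on the controls, highest on control 2 and affected 2. The part of these cells and of RNA integrity in the values of MMP23, MMP2, TIMP2, ADAMTS5 and MMP28 was not tested.

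**Figure D5:**
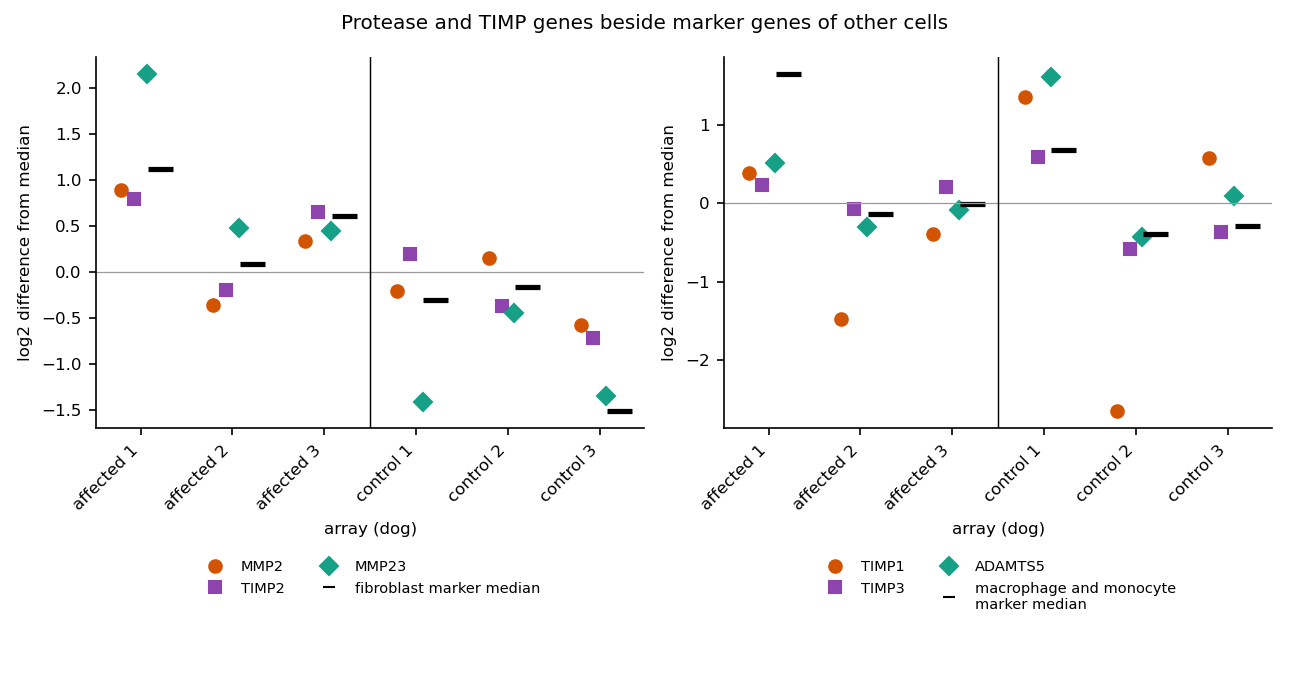
Values per array (log2 difference from the median over the 6 arrays) of MMP2, TIMP2 and MMP23 beside the median of 11 fibroblast markers (left), and of TIMP1, TIMP3 and ADAMTS5 beside the median of 12 macrophage and monocyte markers (right), affected left of the line. MMP2, TIMP2 and the fibroblast median are highest on affected 1 and affected 3, and both MMP23 and the fibroblast median are above all controls on affected 2 too.

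Highest values were unevenly spread over the dogs. Control 3 held the highest value for 37 of the 54 members (68.5%), where it did so for 46.9% of all genes. Affected 2 was highest for 0 members and for 8.03% of all genes, the smallest share of the 6 arrays. The highest array stood at least 0.5 above the next in 9 members. These were MMP2 and MMP23 on affected 1 (2.55% of all genes) and ADAMTS5, MMP28 and TIMP1 on control 1 (0.992%). ADAMTS3 and MMP15 did so on control 2 (1.2%), and ADAMTS9 and ADAMTS14 on control 3 (2.28%). On affected 2 and affected 3 there were 0 such members, where 0.9% and 1.53% of all genes were found. More than 1 probe set was present for 28 of the genes, and in 7 of these the differences of the probe sets had both signs. The share of such genes over the whole array was not counted.

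Genes that act with these proteases were counted from lists. Of 16 measured activators and other inhibitors 0 passed the adjusted threshold, while an unadjusted p under 0.05 was found for 1 higher (4.88% of all genes) and 0 lower genes (5.64% of all genes). This gene was RECK, a membrane-anchored inhibitor of MMPs, which read 1.57, 0.12 and 0.21 on the affected arrays and -0.80, -0.12 and -0.66 on the controls, a difference of 1.17 (SE 0.45, limma adjusted p = 0.322). CTSK, the collagen-cutting cathepsin K, LRP1, a receptor that clears proteases, and plasminogen (PLG) differed by 1.39, 0.52 and -0.27. The list had a median of 0.38 with 10 of its 16 genes above 0, where 65% of all genes were below 0. The median was -0.075 for all genes and 0.079 for all genes with no probe set following the tags. In the list 2 genes, PLG among them, followed the tags in every probe set.

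Of 28 measured ADAM partners and shed proteins 0 passed the adjusted threshold, while 1 higher and 3 lower genes had an unadjusted p under 0.05, where 4.88% and 5.64% of all genes did. The list median was -0.088. The growth factor EGF differed by 0.68 (SE 0.20), and the Notch ligand JAG1 and the growth factors EREG and BTC by -0.31, -0.18 and -0.17. EREG and BTC followed the tags, as did 2 of the 3 probe sets of JAG1. In this list 11 of the 28 genes followed the tags in every probe set, where 33.3% of all genes did.

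Of 25 measured ADAMTS-like genes and substrates 0 passed the adjusted threshold, and 6 were higher and 0 lower at an unadjusted p under 0.05, beside the same 4.88% and 5.64% of all genes. The list median was 0.27. Some of the 6 higher genes, COL1A1 and COL3A1 among them, are also fibroblast markers, so these lists are not separate observations. VWF, the substrate of another ADAMTS enzyme, differed by 0.89 (SE 0.26), the proteoglycan BGN by 1.65 (SE 0.50), and the collagens COL1A1 and COL3A1 by 1.75 (SE 0.55) and 1.39 (SE 0.48). In COL1A1 the values were 1.31, 0.13 and 1.45 on the affected arrays and -0.35, -0.28 and -1.74 on the controls, without overlap, whereas MMP2 and TIMP2 on affected 2 lay within the controls.

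Counts of members, like those of all genes, depended on single dogs and on covariates. Without control 2, 20 lower members had an unadjusted p under 0.05, against 3 with all dogs, and the share of all genes was 24% against 5.64%. Without control 1 or without affected 2 there were 4 higher members, against 2, where 4.76% and 6.97% of all genes were higher. With age as a covariate there were 3 higher and 13 lower members, where 7.43% and 19.4% of all genes were. After quantile normalization there were 2 higher and 6 lower members, where 6.1% and 6.95% of all genes were. Over all genes 46.4% of those at an unadjusted p under 0.05 were higher, and 74.6% were higher after each array was centred on its median. In the fits without 1 dog and under the other alternatives, 0 members passed the adjusted threshold.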

How the data were processed

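The deposited table held log2 values made by the authors, 1 column per dog. GCRMA and MAS5 stand in the submitters' processing notes, with no version and no word on which step each did. That the scale is log2 is an inference from them and from the spread of the values. The median of each probe set over the 6 arrays was 0 (largest absolute median 5e-07). The genome build is not given in the sources used here. Coordinates are therefore not printed. Titles mark the arrays as biological replicates, and their number limits the precision.

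After 111 control probe sets were left out, 42924 remained, of which 29254 had 1 symbol. No filter on signal was applied. Gene values (means of probe sets) and single probe sets were tested with limma 3.58.1 under R 4.3.3, using lmFit and eBayes without trend. The model held the group alone and left 4 residual degrees of freedom, to which 1.28 prior degrees were added for genes. P-values were two-sided and Benjamini-Hochberg adjusted over all features, with a threshold of 0.05. The fit was tried on simulated data with independent noise and planted changes. These held no shift shared by many probe sets, so they cannot show how the fit behaves under one. RefSeq matched 52 of the 54 genes by gene ID.

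Described in full were, per direction, the 10 members with the largest difference among those without overlap, members at an unadjusted p under 0.05, and TIMP1 to TIMP3, MMP2, MMP9, MMP14, ADAM10, ADAM19, ADAMTS4 and ADAMTS5. Up to 4 genes with the smallest p were named per pathway list. MMP28, the other members given with values, PDGFRA, TCF21 and the calgranulins were picked after their values were seen. The 16 alternatives changed the filter, scaling, probe set rule, covariates, prior or dogs. Members, lists and alternatives were chosen with earlier results of these data known.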

Additional observations from a re-analysis of the deposited data

How the results depend on the processing

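No protease or TIMP gene or probe set passed the adjusted threshold under any of the 16 alternatives, and with 1 dog left out 0 of all genes did. Some alternatives could not change a difference. Sex and replicate number were balanced between the groups, so these terms and the other prior altered only the SE. Genes with 1 probe set, such as MMP23, also kept their difference wherever only the choice of probe sets changed. With such values counted, 318 values of the 21 fully described genes kept their sign and their side of the threshold, and 7 reversed. These were MMP14 after quantile normalization (0.0068), MMP2 with a term for affected 1 and affected 3 (-0.15), TIMP1 without affected 2 (0.24), without control 1 (0.55) and without control 3 (0.16), ADAM10 without affected 2 (0.028) and ADAMTS5 without control 1 (0.21). With 1 dog left out TIMP1 ran from -1.45 to 0.55, ADAM10 from -0.18 to 0.028 and ADAMTS5 from -0.81 to 0.21. The cause was not tested beyond the dog left out. Over all genes 1 passed with the filter on range (which left 10277 genes) and 1 with the term for affected 1 and affected 3. Over all probe sets 1 passed as reported, 6 with the filter on range, 0 after quantile normalization, 0 with age, 0 with the term for affected 1 and affected 3, and between 0 and 5 with 1 dog left out.

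Family medians moved where fewer probe sets entered. With the filter on range they were -0.20 for ADAM, -0.38 for ADAMTS and -0.25 for MMP genes, and without the probe sets that follow the tags the ADAMTS median was -0.38. The ADAMTS median was -0.26 when each gene was read by its most variable probe set. After quantile normalization the ADAMTS and MMP medians were -0.072 and -0.0068, and after median centring the ADAM, ADAMTS and MMP medians were -0.035, -0.067 and -0.019. These steps moved the median of all genes by 0.063 and 0.073. With the term for affected 1 and affected 3 the ADAM median was -0.16 and the TIMP median 0.037, against 0.24 as reported. The TIMP median was 0.075 with the most variable probe set per gene and 0.14 after quantile normalization. With 1 dog left out the medians ran from -0.14 to -0.086 for ADAM, from -0.16 to -0.081 for ADAMTS, from -0.12 to -0.065 for MMP and from 0.0082 to 0.59 for TIMP genes.

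The replicate numbers of the labels were tried as a replicate block, with 0 members and 0 probe sets in all past the threshold. Dogs with the same number had deviations that correlated at 0.25, 0.16 and 0.064 over genes. Each array correlated best with its own number, a hint from the data only, and the numbers were not taken to pair dogs of different breeds. Signal over background could not be read from centred values, and in 26 of the 54 genes every probe set followed the tags.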
